A study of Mus musculus with 6 samples.

Results

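The 10 genes described here are imprinted, which means that in most tissues only the copy inherited from 1 parent is transcribed, and they act in the growth of the embryo and of mesenchymal progenitor cells. They were chosen by name, as H19, Meg3, Dlk1, Peg3, Mest, Cdkn1c, Plagl1, Ndn, Grb10 and Nnat, and each of the 10 has a row among the 57180 genes of the deposited count table. Imprinted genes lie in clusters in which maternally and paternally transcribed genes sit side by side, under the control of regions whose DNA methylation is set in egg or sperm. In the mouse, many of these 10 are transcribed together in embryonic tissues and are switched down after birth, and Plagl1, a zinc-finger transcription factor, regulates several of the others.

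RNA was read in 3 FasL KO and 3 wt libraries of cells taken from the calvaria, the vault of the skull. The FasL KO cells came from B6Smn.C3-Faslgld/J mice carrying gld on both chromosomes, a point mutation of the Fas ligand gene Fasl, and the wt cells from C57BL/6 mice. Cells of each genotype were driven towards bone by ascorbate plus β-glycerophosphate, and per the protocol grew side by side for 72 h beyond day 14. No label puts a library in the arm of the protocol with added Fas ligand. Whether replicates are separate mice or separate cultures is not labelled, so p-values measure the spread of these libraries alone, and that spread may be technical. The mutation is present in every cell of the mouse, and the labels call the line a KO although a point mutation need not lower the transcript.

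QuantSeq reads come from the 3′ end of polyadenylated RNA, 75 nt long, about 1 per molecule whatever the gene's length. The FasL KO libraries held 4048258 to 5245546 reads assigned to genes and the wt libraries 2011173 to 3105322. Fasl was listed at 0 in all 6 libraries, so the table does not check the genotype, and a count could not do so for a point mutation. The osteoblast markers Col1a1, Col1a2, Cdh11 and Alpl had reads in every library, while Bglap and Spp1, late osteoblast markers, had 1 and 4 reads in all. Both have transcript ends shared, wholly or in part, with other annotated transcripts of the gene, a limit on counts taken up below. Levels are CPM, reads scaled for library size, here with the trimmed mean of M values (TMM), differences are log2 FasL KO minus wt, and a gene is called at an adjusted p under 0.05 in edgeR's quasi-likelihood test. Of 8692 genes tested 847 were called higher and 668 lower in FasL KO, 17.4% together. Scaled by library size alone, edgeR called 720 higher and 975 lower, and the median log2 fold change of all tested genes moved to −0.14, against 0.02 under TMM.

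Meg3, a long non-coding RNA transcribed from the maternal chromosome, was about 4 times as abundant in FasL KO as in wt cultures (3.97-fold), and 3 other genes of its imprinted domain were called higher too. Among these 3, the calls of Rian and Gm37899 depend on single libraries. Plagl1 was 1.76-fold higher in FasL KO, a call that depends on single libraries. Ndn, which encodes the growth-restraining protein necdin, averaged 98.1 CPM in FasL KO and 132 CPM in wt and was not called. The other 7 genes could not be compared: H19, Dlk1, Mest, Cdkn1c and Nnat were listed at 0 in all 6 libraries, and Peg3 and Grb10 had reads in only 1 library. Of the 3 members with enough reads to test, 2 were called higher and 0 lower, beside 9.74% of all tested genes called higher and 7.69% called lower. The median log2 fold change of the 3 was 0.81. Since a member passes the filter on low counts through whichever group has the reads, these counts describe the 3 and say nothing of the other 7. In bulk RNA, fewer cells that use a gene and less of its RNA per cell cannot be told apart.

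**Figure D1:**
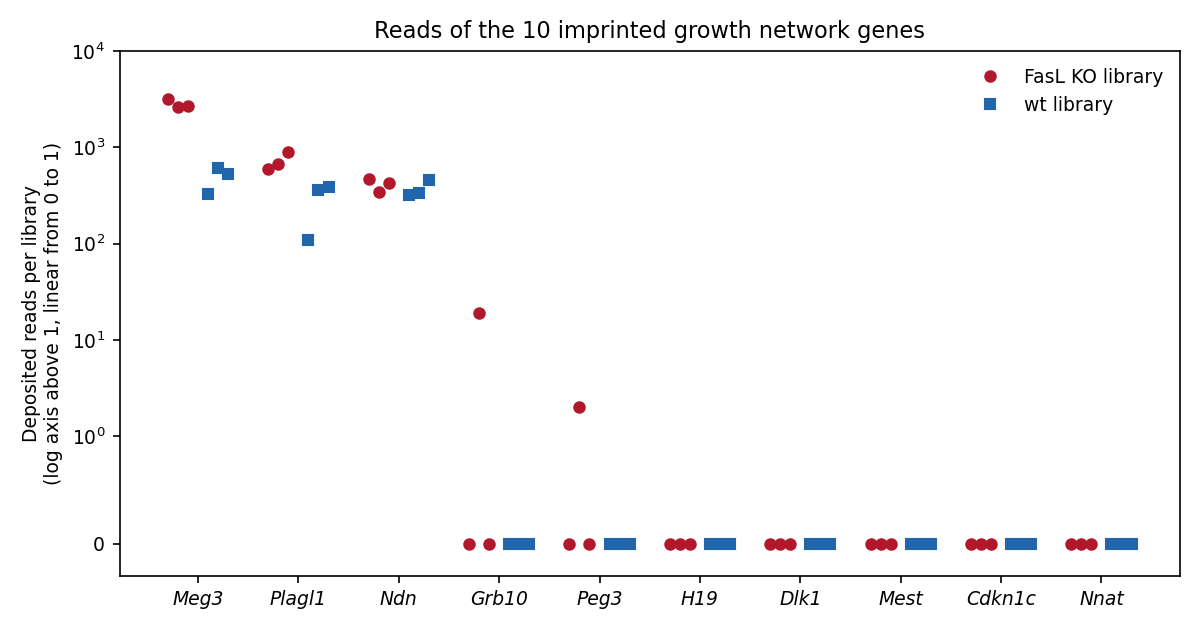
Deposited reads of each of the 10 genes in each library, FasL KO as circles to the left and wt as squares to the right, on an axis that is logarithmic above 1 and linear from 0 to 1. Meg3, Plagl1 and Ndn had at least 110 reads in every library, Grb10 and Peg3 had reads in FasL KO 2 alone, and the other 5 genes were at 0.

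Meg3 (ENSMUSG00000021268, GRCm38 chromosome 12, 109541001 to 109571726, plus strand) is annotated as a non-coding gene of 11 transcripts. It had 3150, 2592 and 2669 reads in FasL KO 1, 2 and 3, against 330, 609 and 521 in wt 1, 2 and 3. Scaled for depth, these were 786, 683 and 548 CPM in FasL KO and 155, 193 and 160 CPM in wt. All 3 FasL KO libraries lay above all 3 wt libraries, and the lowest FasL KO library was still well clear of the highest wt library. Groups did not overlap in 33.3% of all tested genes. Meg3 averaged 672 ± 119 CPM in FasL KO and 169 ± 20.4 CPM in wt (SD, n = 3 each). Its log2 fold change was 1.99 ± 0.15 (SE), a 3.97-fold difference, with an edgeR adjusted p = 3.40e-07. By p this was the 110th of the 8692 tested genes, and by the size of the increase the 504th.

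**Figure D2:**
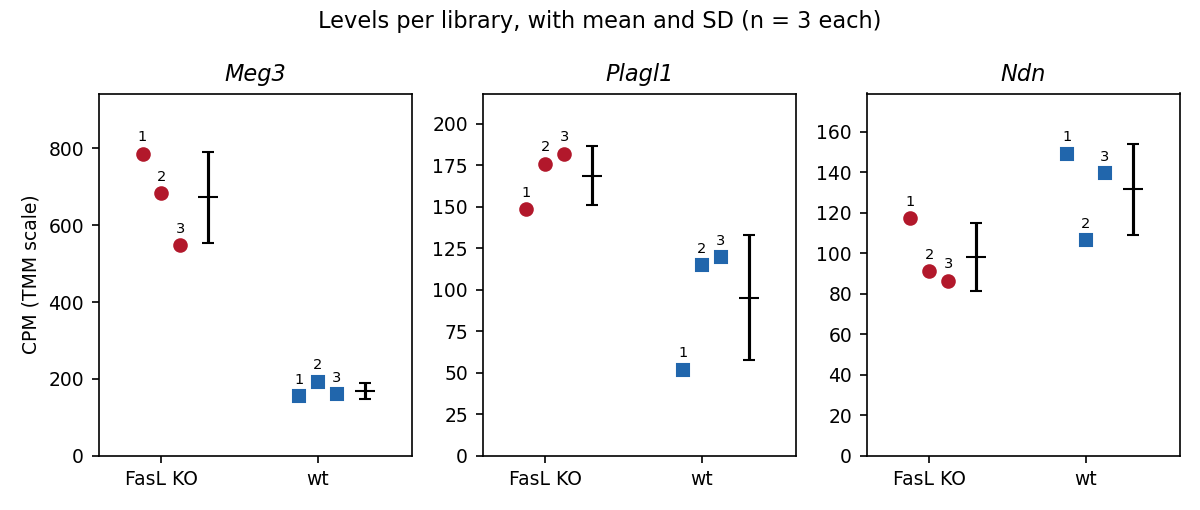
CPM of Meg3, Plagl1 and Ndn in each library, FasL KO left and wt right, with library numbers above the points and the mean and SD beside them (n = 3 each). Meg3 separates the groups widely at 548 to 786 CPM against 155 to 193 CPM, Plagl1 separates them narrowly with wt 1 apart at 51.7 CPM, and the Ndn ranges overlap.

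Among the 308 long non-coding genes tested, 21 were called higher and 9 lower in FasL KO, 9.74% in all. Meg3 had the second-smallest adjusted p of these 308 and the 25th-largest increase. Its count carries 1 caution from the annotation. Of the last 300 exonic bases of its longest transcript 1.33% lie in that transcript alone, and the antisense gene Gm26906, not analysed here, overlaps them on the other strand. Without a stated strand setting, the reads of such a pair cannot be told apart.

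The start of Meg3 is printed for its place in the imprint: it lies at a region where the paternal chromosome is methylated and the maternal one is not, and methylation falls on CpG dinucleotides, shown in capitals. The start of Dio3, at the far end of the same domain, is shown because its transcript differed by the same factor, and that of Plagl1 because it is the other member called. Each run holds 250 bases before and 50 after the transcript start, from RefSeq on GRCm38.p6, in which 8 of the 10 members matched.
Meg3 promoter, chr12:109540746-109541045, plus strand: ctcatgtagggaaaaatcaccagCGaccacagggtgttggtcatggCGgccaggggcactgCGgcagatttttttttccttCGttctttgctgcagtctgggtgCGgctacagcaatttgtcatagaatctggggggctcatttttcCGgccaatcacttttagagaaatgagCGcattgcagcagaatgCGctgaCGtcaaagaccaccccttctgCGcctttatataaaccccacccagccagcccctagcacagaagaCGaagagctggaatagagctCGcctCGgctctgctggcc
Dio3 promoter, chr12:110278980-110279279, plus strand: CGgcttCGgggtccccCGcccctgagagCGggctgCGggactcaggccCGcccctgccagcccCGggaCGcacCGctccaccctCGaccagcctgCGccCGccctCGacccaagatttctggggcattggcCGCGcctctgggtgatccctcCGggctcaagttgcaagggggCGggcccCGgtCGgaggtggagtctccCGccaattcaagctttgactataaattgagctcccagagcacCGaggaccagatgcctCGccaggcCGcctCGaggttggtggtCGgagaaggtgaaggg
Plagl1 promoter, chr10:13090582-13090881, plus strand: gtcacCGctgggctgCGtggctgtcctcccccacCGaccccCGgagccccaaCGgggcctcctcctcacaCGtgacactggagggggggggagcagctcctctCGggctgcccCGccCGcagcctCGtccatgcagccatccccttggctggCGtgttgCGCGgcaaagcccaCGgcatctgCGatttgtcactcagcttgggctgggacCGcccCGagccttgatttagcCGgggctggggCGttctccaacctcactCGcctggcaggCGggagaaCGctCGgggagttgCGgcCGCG
The printed Meg3 window holds 13 CpG, the Dio3 window 25 and the Plagl1 window 26, where the median of all 32851 promoter windows is 7. At least as many were found in 37.9%, 18.4% and 16.9% of those windows. A second RefSeq start of Meg3, further along the gene (chr12:109545148-109545447) and not printed, has a window with 1 CpG, and 94.6% of windows hold at least as many. The capitals mark where methylation could fall, and methylation itself was not measured here. The letters GGGGCCCC, reported as a binding sequence of PLAGL1 and the same on either strand, occur in none of these 3 windows and in 1.08% of all windows. Among the windows of the 8 matched members only that of Peg3 holds them, and H19 and Cdkn1c had no window to search. Nothing follows from a match or its lack about binding.

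Meg3 lies in the Dlk1-Dio3 domain, which spans 828 kb of chromosome 12 from the start of Dlk1 to the end of Dio3. The maternal chromosome gives the long non-coding RNAs Meg3, Rian and Mirg, which host small nucleolar RNAs and microRNAs, and the paternal one gives the protein-coding genes Dlk1, Rtl1 and Dio3. Of the 7 genes of the domain with enough reads to test, Meg3 included, 4 were called higher in FasL KO and 0 lower. Over all tested genes 9.74% were called higher and 7.69% lower. A gene passes the filter on low counts through whichever group has the reads, so these counts describe the 7 alone. Rian, Gm37899 and Mirg each had at most 3 reads in wt 1, below the filter's mark of about 10.

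Rian, the small nucleolar RNA host next to Meg3, had 149, 72 and 43 reads in FasL KO against 3, 21 and 24 in wt, or 21.7 ± 14.4 CPM against 5.14 ± 3.25 CPM (SD, n = 3 each). Its groups did not overlap, but FasL KO 3, at 8.83 CPM, lay just above wt 3, at 7.37 CPM. The log2 fold change of Rian was 2.03 ± 0.64 (SE), at edgeR's adjusted p = 0.0403. That call was lost without FasL KO 1 (1.38, adjusted p = 0.277), FasL KO 2 (0.0762), wt 1 (0.113), wt 2 (0.0694) or wt 3 (0.0634), in limma-voom (0.199) and by library size alone (0.0524).

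Mirg, the microRNA host further along, was named after its values were seen. It had 119, 73 and 57 reads in FasL KO against 0, 24 and 26 in wt. The groups did not overlap, and the log2 fold change of 1.9 ± 0.75 (SE) was not called, with an edgeR adjusted p = 0.107. DESeq2 gave an adjusted p = 0.0431 for the same gene. Gm37899, an uncharacterised transcript model between Rian and Mirg on the same strand and also named after its values were seen, had 230, 63 and 128 reads in FasL KO against 3, 20 and 31 in wt. Its log2 fold change was 2.48 ± 0.59 (SE), at edgeR's adjusted p = 0.00782, and the call was lost without FasL KO 1 (adjusted p = 0.0822) and in limma-voom (0.0639).

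Across Meg3, Rian and Mirg, FasL KO 1 had the highest level and FasL KO 3 the lowest of the FasL KO libraries. Their summed level was 853, 722 and 568 CPM in FasL KO 1, 2 and 3 against 156, 207 and 175 CPM in wt 1, 2 and 3. Meg3 stayed called without any 1 of these libraries, and leaving out FasL KO 1, 2 or 3 gave log2 fold changes of 1.84, 1.95 and 2.1.

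Dio3, at the other end of the domain, encodes type 3 iodothyronine deiodinase, which inactivates thyroid hormone. It had 197, 197 and 314 reads in FasL KO against 25, 37 and 58 in wt, or 55.2 ± 8.15 CPM against 13.8 ± 3.51 CPM (SD, n = 3 each). All FasL KO libraries were above all wt libraries, here with FasL KO 3 the highest at 64.5 CPM. The log2 fold change was 1.99 ± 0.30 (SE), at edgeR's adjusted p = 0.000203, and it stayed called in every setting tried. Dio3 is known as transcribed from the paternal chromosome and Meg3, Rian and Mirg from the maternal one, and each had its 3 highest levels in the FasL KO libraries. Which parental copy gave the reads was not measured here.

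The other tested genes of the domain, named after their values were seen, were not called: B830012L14Rik at 1.25 ± 1.28 (SE, edgeR adjusted p = 0.616) and the pseudogene Gm3379 at 0.09 ± 0.13 (adjusted p = 0.744). Dlk1, which encodes a membrane protein related to Notch ligands that holds back fat cell formation, was listed at 0 in each library. Rtl1, a gene derived from a retrotransposon, had 7, 2 and 0 reads in FasL KO against 3, 15 and 4 in wt, too few to test.

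**Figure D3:**
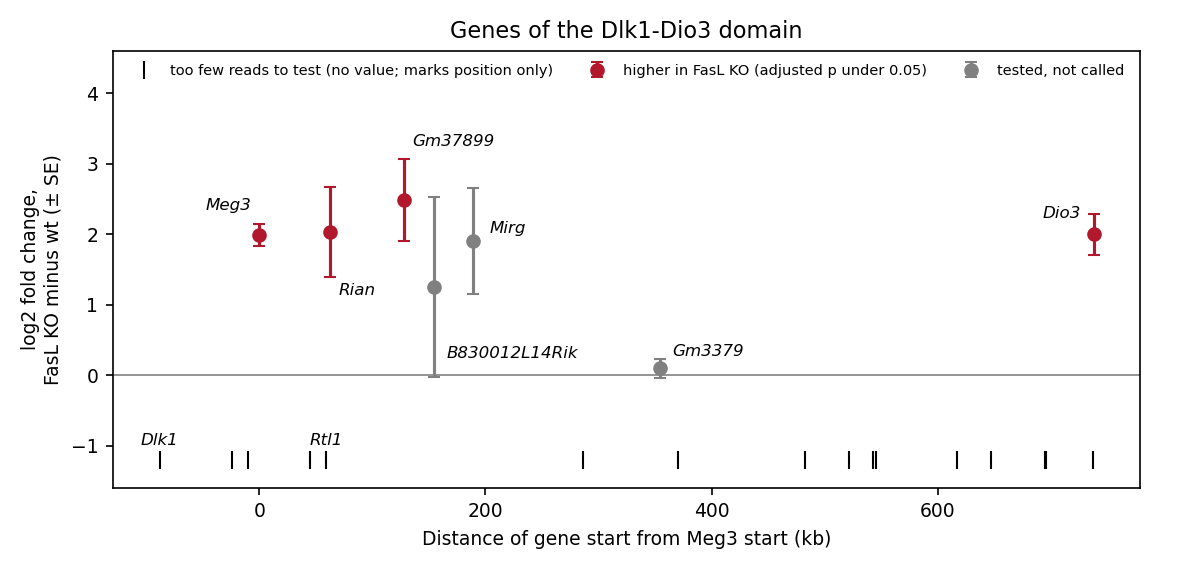
log2 fold change (FasL KO minus wt, ± SE) of the 7 tested genes of the Dlk1-Dio3 domain against the distance of their start from that of Meg3, in kb. Meg3, Rian, Gm37899 and Dio3 (red) lie near or above 2 and were called higher, Mirg, B830012L14Rik and Gm3379 (grey) were not called, and ticks at the bottom mark genes with too few reads, which have no value; small RNA genes without reads are not drawn.

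RefSeq lists 3, 6 and 26 mature microRNAs within Meg3, Rian and Mirg on the strand of the host. Short RNAs are not captured by this assay, and of 77 small RNA genes annotated in the domain 76 had no read, so the differences above are those of the long host RNAs. A few of the mature microRNAs they carry are shown, with the seed, bases 2 to 8, in capitals, from RefSeq on GRCm38.p6. The pair from Mirg at the end is the 1 pair among the 35 hosted in the domain that shares a seed.
mmu-miR-770-5p (Meg3): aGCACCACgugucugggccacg
mmu-miR-770-3p (Meg3): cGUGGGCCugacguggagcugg
mmu-miR-370-3p (Rian): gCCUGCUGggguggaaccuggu
mmu-miR-410-3p (Mirg): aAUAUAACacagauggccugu
mmu-miR-453 (Mirg): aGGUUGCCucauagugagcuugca
mmu-miR-496a-5p (Mirg): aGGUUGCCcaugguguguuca

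Plagl1 (ENSMUSG00000019817, chromosome 10, 13060504 to 13131694, plus strand) is transcribed from the paternal chromosome and encodes a zinc-finger protein that slows cell division and regulates other imprinted genes in the mouse. It had 595, 667 and 886 reads in FasL KO against 110, 363 and 389 in wt. These were 148, 176 and 182 CPM in FasL KO, against 51.7, 115 and 119 CPM in wt. The groups did not overlap, wt 1 stood apart from the other wt libraries, and the gap from the highest wt to the lowest FasL KO library was small beside it. Means were 169 ± 17.8 CPM in FasL KO and 95.3 ± 37.8 CPM in wt (SD, n = 3 each). The log2 fold change was 0.81 ± 0.25 (SE), at edgeR's adjusted p = 0.0349. Without wt 1 it was 0.53 (adjusted p = 0.0768), and the call was also lost without FasL KO 1 (0.0521), FasL KO 2 (0.101) or FasL KO 3 (0.118), and by library size alone (0.0769). The last 300 exonic bases of Plagl1's main transcript lie in that transcript alone.

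Of 5 neighbours listed 3 could be tested and 0 were called. Sf3b5, a splicing factor gene, was at 0.11 ± 0.19 and Ltv1, a ribosome assembly gene, at 0.51 ± 0.31 (SE), with edgeR adjusted p-values of 0.796 and 0.335. Plag1, the non-imprinted relative of Plagl1 and a growth-promoting transcription factor, was lower in FasL KO, with 17, 7 and 4 reads against 27, 45 and 39 in wt. Its log2 fold change was −2.49 ± 0.71 (SE), at edgeR's adjusted p = 0.0249. That call was lost without FasL KO 2, FasL KO 3 or any 1 of the wt libraries, with adjusted p-values up to 0.0817, and without FasL KO 1 the value was −3.29.

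Ndn (ENSMUSG00000033585, chromosome 7, 62346569 to 62350262, plus strand) has a single annotated transcript and is transcribed from the paternal chromosome. Necdin binds E2F1 and p53 and restrains division, and it is used by mesenchymal progenitors and neurons. It had 470, 345 and 420 reads in FasL KO against 317, 336 and 454 in wt, or 117, 91.0 and 86.2 CPM against 149, 106 and 139 CPM. The ranges overlapped, since FasL KO 1 lay above wt 2. Ndn averaged 98.1 ± 16.7 CPM in FasL KO and 132 ± 22.4 CPM in wt (SD, n = 3 each). The difference of −0.42 ± 0.19 (SE) on the log2 scale had an unadjusted p = 0.0441 and an edgeR adjusted p = 0.166, and Ndn was not called in any setting tried. Of 7 listed neighbours in the Prader-Willi and Angelman region, Ube3a and Peg12, named after their values were seen, were tested and not called. The aminophospholipid flippase gene Atp10a was lower, with 39, 20 and 9 reads in FasL KO against 46, 62 and 82 in wt, a log2 fold change of −1.98 ± 0.55 (SE) and an edgeR adjusted p = 0.0219. The call of Atp10a was lost without FasL KO 2, wt 1 or wt 3, with adjusted p-values up to 0.0852, and without FasL KO 1 the value was −2.67. Magel2, the closest relative of Ndn in the region, and Snrpn were listed at 0, and the end of Snrpn is shared between its annotated transcripts.

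**Figure D4:**
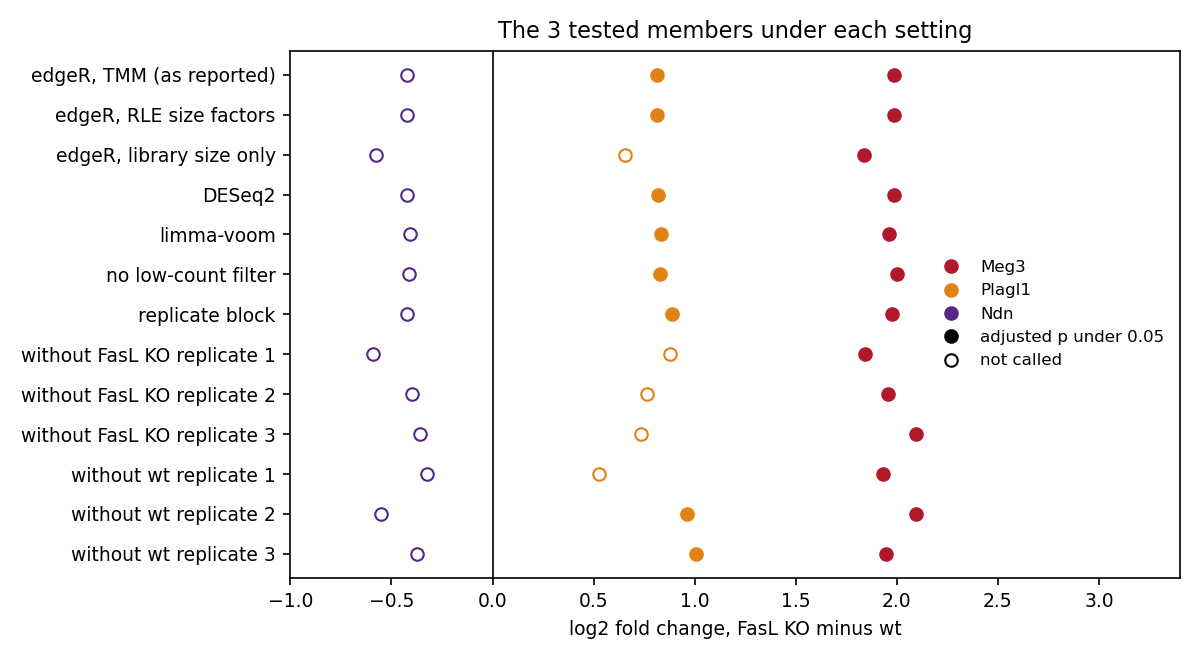
log2 fold change (FasL KO minus wt) of Meg3, Plagl1 and Ndn as reported and under each of 12 other settings; filled points were called and open points were not. Meg3 stays between 1.84 and 2.1 and called throughout, Plagl1 runs from 0.53 to 1 with 5 open points, and Ndn stays below 0 and open.

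The 7 members without usable counts include the best-known growth regulators of the set. H19 (chromosome 7) is a maternally transcribed non-coding RNA next to the growth factor gene Igf2, and Cdkn1c encodes the cell-cycle inhibitor p57. Mest encodes an enzyme of the hydrolase fold used in mesoderm, Nnat a small membrane protein, Grb10 an adapter that dampens insulin and IGF receptor signals, and Peg3 a large zinc-finger protein. Grb10 had 19 reads in FasL KO 2 and Peg3 2 reads in the same library, and neither had any in the other 5. By counting error alone, a count of 0 in each of the 3 libraries allows up to 0.237 CPM over the FasL KO group and 0.351 CPM over the wt group.

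That limit applies to reads assigned, not to the transcripts. The last 300 exonic bases of the main transcript are shared with other annotated transcripts of the same gene in 7 of the 10 members, namely H19, Meg3, Dlk1, Mest, Cdkn1c, Grb10 and Nnat, and 5 of these 7 were at 0. Of the 3 members with an unshared end, Plagl1 and Ndn could be tested, while Peg3 had 2 reads, all in FasL KO 2. Of the 7 with a shared end, Meg3 alone could be tested. Among all protein-coding genes, 57.3% of 10585 with a shared end were at 0 in all libraries and 14.5% could be tested, against 38.0% of 11207 at 0 and 43.8% tested with an unshared end. The end of Mest is also overlapped by exons of Copg2 on the other strand, and Copg2 was at 0. Blcap, within which Nnat lies, had 3 reads, all in wt 3. The part of shared ends in the zeros was not tested, and H19, Dlk1, Mest, Cdkn1c and Nnat are given here as listed at 0, not as silent. Igf2, the growth factor gene beside H19, has a shared end too and had 10, 6 and 0 reads in FasL KO against 3, 0 and 5 in wt, too few to test.

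Of 56 listed imprinted genes outside the set, 18 could be tested, 3 were called higher and 2 lower in FasL KO, and 13 were not called. Over all tested genes 9.74% were called higher and 7.69% lower. The median log2 fold change of the 18 was 0.25, against 0.02 over all tested genes. The genes listed as paternally transcribed gave 1 higher, Dio3, of 8 tested, and those listed as maternally transcribed 2 higher and 2 lower of 10. Igf2r, whose protein takes IGF2 to the lysosome for breakdown, had 1382, 1133 and 1320 reads in FasL KO against 901, 1590 and 1306 in wt, or 305 CPM against 442 CPM on average. Its log2 fold change of −0.54 ± 0.14 (SE) was called, with an edgeR adjusted p = 0.0119. Gatm, an enzyme gene of creatine synthesis imprinted in placenta, had 20, 17 and 79 reads in FasL KO against 2, 0 and 0 in wt. Summed over libraries and scaled, that is a ratio of 39.1, with a 95% counting interval of 10.6 to 327. The call of Gatm (edgeR adjusted p = 0.0152) was lost without FasL KO 3 (0.145), wt 2 (0.0529) or wt 3 (0.0614), and in limma-voom (0.084). Gatm passed the filter on low counts through the FasL KO libraries alone.

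Several imprinted transcripts of other domains were not called. Impact was at 0.26 ± 0.18, Peg12 at 0.61 ± 0.39 and Peg13 at −0.33 ± 0.27 (SE), these 3 and Htr2a named after their values were seen, and Kcnq1ot1, the long antisense RNA that controls the Cdkn1c cluster, at 0.30 ± 0.29. Their edgeR adjusted p-values ran from 0.370 to 0.593. Cars, the other tested neighbour of Cdkn1c, was at −0.32 ± 1.10 (SE, edgeR adjusted p = 0.91). Beside Nnat, Tgm2, a crosslinking transglutaminase, was at 0.21 ± 0.16 and Ctnnbl1 at −0.16 ± 0.30 (SE), with edgeR adjusted p-values of 0.454 and 0.810. Htr2a, a serotonin receptor gene, had 73, 25 and 7 reads in FasL KO against 51, 110 and 76 in wt and was not called at −1.65 ± 0.63 (SE, edgeR adjusted p = 0.0941), although DESeq2 (0.0481) and limma-voom (0.0112) called it, as did edgeR without FasL KO 1 (0.00752).

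**Figure D5:**
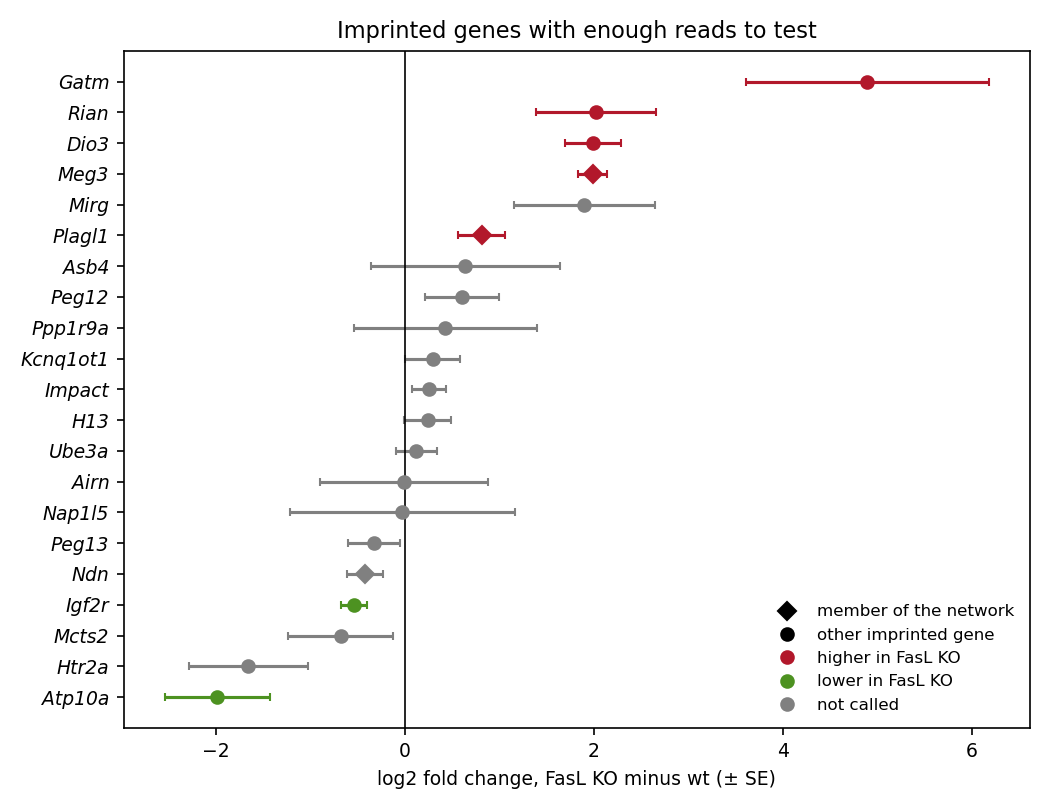
log2 fold change (FasL KO minus wt, ± SE) of the 3 tested members (diamonds) and the 18 other imprinted genes tested (circles), coloured by call. Rian, Dio3 and Meg3, all of 1 domain, sit together near 2, Gatm stands above them with a wide error, Atp10a and Igf2r were called lower, and the grey genes were not called.

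Genes of the pathways in which the members act were also called in both directions, where 9.74% of all tested genes were called higher and 7.69% lower. Of 12 tested genes of IGF and insulin signalling, of 16 listed, 5 were called higher and 4 lower in FasL KO, with a median of −0.22. Igf1, the growth factor gene, averaged 2139 CPM in FasL KO and 346 CPM in wt, a log2 fold change of 2.63 ± 0.16 (SE). Igf1r, its receptor and a target of GRB10, averaged 571 CPM in FasL KO and 1464 CPM in wt, a change of −1.36 ± 0.14 (SE), and Insr, named after its values were seen, was at −2.0 ± 0.42 (SE), or −1.38 without wt 2 (edgeR adjusted p = 0.0469). The adapter gene Irs1 was higher by 1.97 ± 0.21, and the binding protein genes Igfbp4 and Igfbp5 by 0.44 ± 0.07 and 0.97 ± 0.19 (SE). The largest edgeR adjusted p of these 6 was 0.00367, for Insr. Binding protein genes were called in both directions. Igfbp6 was at −1.92 ± 0.43 (SE, edgeR adjusted p = 0.00526) and Igfbp3 at 1.51 ± 0.39 (SE, edgeR adjusted p = 0.0139), both named after their values were seen.

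Around Cdkn1c's role in the cell cycle, 2 of 10 tested G1 and division genes of 20 listed were called higher and 1 lower, with a median of 0.66. Beside this and the lists that follow, 9.74% of all tested genes were called higher and 7.69% lower. Ccnd1, the cyclin D1 gene, was 2.13 ± 0.14 higher on the log2 scale, its partner kinase gene Cdk6 0.84 ± 0.16 higher, and the retinoblastoma gene Rb1 fell by 1.01 ± 0.24 (SE, largest edgeR adjusted p = 0.00734, for Rb1). Of 7 tested non-imprinted relatives of the members, of 15 listed, Plag1 alone was called. Of the 8 tested mesenchymal progenitor markers of 18, 0 were called higher and 3 lower: Nt5e (CD73) fell by 3.55 ± 0.24, Thy1 fell by 1.46 ± 0.33 and Prrx1 fell by 0.51 ± 0.15 on the log2 scale (SE, largest edgeR adjusted p = 0.0312, for Prrx1, lost without wt 2, FasL KO 2 or FasL KO 3). Of 5 tested genes of fat cell formation, which DLK1 restrains, of 11 listed, 2 were higher and 3 lower. Lpl fell by 2.32 ± 0.17, Cebpb fell by 0.70 ± 0.12 and Cebpd fell by 0.48 ± 0.13, while Sox9 was 1.87 ± 0.11 and the Notch target gene Hes1 0.51 ± 0.16 higher (SE, largest edgeR adjusted p = 0.0398, for Hes1). The call of Hes1 was lost in 8 of the 12 other settings and that of Cebpd without wt 3 or FasL KO 3.

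Markers of several cell types differed between the groups as well, where 9.74% of all tested genes were called higher in FasL KO and 7.69% lower. The summed level of 13 macrophage markers was 2230 to 6217 CPM in FasL KO and 3.29 to 124 CPM in wt, with all 7 tested higher, among them C1qa, C1qb, C1qc, Marco and Laptm5 (C1qa was not called in limma-voom, adjusted p = 0.0699), and with the defining genes Csf1r, Tyrobp, Fcer1g, Adgre1 and Aif1 at 0. Of the macrophage markers at 0, 4 have a shared end and 1 an unshared one. C1qa had 345, 595 and 1441 reads in FasL KO and 0, 5 and 0 in wt, and Laptm5 432, 474 and 1407 in FasL KO and 0, 8 and 0 in wt. All wt reads of these genes lie in wt 2, so the size of their fitted fold changes rests on that library. C1qa and Laptm5 passed the filter on low counts through FasL KO alone, so a call of higher was nearly fixed beforehand. For each list of markers, the counts of calls describe only the genes that passed the filter, through whichever group had the reads. Within FasL KO the macrophage sums were 2230, 3579 and 6217 CPM in FasL KO 1, 2 and 3. Plagl1 (148, 176 and 182 CPM) and Dio3 (49.1, 51.9 and 64.5 CPM) had the same order of these libraries, and Meg3 (786, 683 and 548 CPM) and Rian (37.2, 19 and 8.83 CPM) the opposite one. Gm37899 (57.4, 16.6 and 26.3 CPM) had neither, and any order of 3 libraries comes easily. The 12 osteoblast markers summed to 63343 to 69937 CPM in FasL KO and 16811 to 24627 CPM in wt, with 6 of 8 tested called higher, Col1a1, Col1a2, Cdh11 and Phex among them, and Alpl lower. Such a sum is set by the most abundant markers. Dlx5, whose end is shared, was at 0, and Bglap and Spp1 had 1 and 4 reads in all. The 10 chondrocyte markers summed to 1063 to 1119 CPM in FasL KO and 217 to 224 CPM in wt, with 5 of 6 tested called higher, namely Sox9, Col11a2, Col9a2, Acan and Matn3. Lower sums were seen for the adipocyte markers, 91.6 to 129 CPM in FasL KO against 476 to 679 CPM in wt, where Lpl holds nearly all reads. Muscle markers summed to 18.7 to 31.4 CPM in FasL KO and 1.58 to 7.05 CPM in wt, mostly Acta1. The sums of endothelial and epithelial markers overlapped between the groups, with Flt1 called lower and Cdh1 higher. Of the 3 endothelial markers tested, the other 2 lay above 0 and were not called, and the median log2 fold change was 1.51. Of the 2 epithelial markers tested, the one beside Cdh1 lay below 0 and was not called. The call of Flt1 was lost without wt 2 (adjusted p = 0.0981), wt 3 (0.146), FasL KO 1 (0.0805) or FasL KO 2 (0.116), and with no filter on low counts (0.0683). The part of cell type make-up in the differences of Meg3, Rian, Dio3 and Plagl1 was not tested.

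Genes with the pattern most like each tested member over the 6 libraries, by Pearson's r of log2 CPM, were Ctsk for Meg3 (r = 0.998), Pde3b for Plagl1 (r = 0.992) and Ccnq for Ndn (r = 0.994). Ctsk, the cathepsin K gene, averaged 464 ± 42.1 CPM in FasL KO and 172 ± 9.08 CPM in wt (SD, n = 3 each). Pde3b, a phosphodiesterase gene, and Ccnq, a cyclin gene, were not called, with edgeR adjusted p-values of 0.0895 and 0.131. With 6 libraries in 2 groups such values come easily: 340 genes exceeded r = 0.95 with Meg3, 60 with Plagl1 and 26 with Ndn.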

How the data were processed

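The authors deposited raw read counts for each Ensembl gene of 3 FasL KO and 3 wt libraries, with 57180 identified rows and 1 empty row left out. Per the series' design text, QuantSeq FWD reads were trimmed with Cutadapt and aligned with STAR. Trim Galore, FastQC and DESeq2, with build mm10, appear in the submitters' processing notes. Which program counted reads, on which strand and with which annotation, is not given in the sources used here. Of the identifiers, 51932 were found in GENCODE M21 (GRCm38), the source of symbols, positions and transcript ends.

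Genes kept by filterByExpr (about 10 reads in 3 libraries, 15 in all) were TMM-scaled and tested with edgeR 4.0.16 (R 4.3.3) by its quasi-likelihood test of FasL KO against wt, with no covariate and Benjamini-Hochberg adjustment over all 8692 genes. SE is the absolute log2 fold change over the square root of F. Floors are 3 reads over a group, and intervals and floors cover counting error only. DESeq2 1.42.0, limma-voom (limma 3.58.1), RLE factors, library size alone, no filter, a replicate block and leaving out each library were the alternatives. On simulated counts of 8692 genes for this comparison, planted changes of 2-fold were recovered in 30% of 50 genes and of 4-fold in 66%, with 1 false call.

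The members and lists were chosen with earlier results of these data known. From each other list up to 5 called genes are named by adjusted p, or up to 2 uncalled by mean count, plus the gene most like each tested member with a mean of at least 50 reads. An end is unshared where at least 99% of its last 300 exonic bases lie in 1 transcript of the gene. Replicates of a group differed by more than sampling noise. No sample column was left unused. The result of 1 list of cell type markers is not reported here.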

Additional observations from a re-analysis of the deposited data

How the results depend on the processing

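Over the 12 other settings, Meg3 and Dio3 kept their direction and their call. The log2 fold change of Meg3 ran from 1.84 to 2.1 and that of Dio3 from 1.83 to 2.23. The count of called members was 2, and 1 by library size alone; it ran from 1 to 2 when single libraries were left out, the lost call being that of Plagl1 each time. The count of other imprinted genes called was 5, and it ran from 2 to 5 when single libraries were left out. It was 7 in DESeq2 and with no filter on low counts, and 4 in limma-voom and by library size alone. The replicate block left 2 members and 4 other imprinted genes called and 1359 genes in all; Rian (adjusted p = 0.142), Gatm (0.0547), Hes1 (0.0529) and Flt1 (0.0675) were not called under it, and Htr2a (0.0491) was. Same-numbered libraries did not deviate together over all tested genes (r from −0.02 to −0.01). Such an r could miss a pairing that moves only some genes, so whether the numbers pair libraries is not known. Of the single-gene values, 685 kept direction and side of the threshold, 52 lost the call, 9 gained one and 9 turned sign. The last were all of genes never called: Sf3b5 (−0.054) and Gm3379 (−0.067) by library size alone, and, when single libraries were left out, Cars (−0.59 to 0.35), Sf3b5 (−0.076 to 0.23), Ctnnbl1 (−0.31 to 0.16) and Gm3379 (−0.0049 and −0.0078, without wt 2 and FasL KO 3, up to 0.18). Cars had no value without FasL KO 1. The cause was not tested. Of the 10 members 7 had too few assigned reads to test, and the calls of Plagl1 and Rian each rest on single libraries.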
